A study of Mus musculus with 19 samples.

Results

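The set described here is 40 genes that build the lysosome, followed through a mouse study of the brain after bone marrow transplantation. It holds 7 membrane proteins, 5 lipid transfer proteins, activators and lipases, 7 sphingolipid hydrolases, 6 glycosaminoglycan hydrolases, 4 glycoprotein and glycogen hydrolases, 3 genes for a peptidase, a thioesterase and progranulin, 2 acid phosphatases, 5 subunits of the vacuolar proton pump and the regulator Tfeb. The 40 genes were chosen by name, with the cathepsins left out. All 40 were among the 13783 genes of the table for sorted cells, and 39 among the 15634 genes of the table for hippocampus, where Atp6v0d2 was not listed. Every recipient mouse received 1100 cGy of total body irradiation in split doses and 5000000 bone marrow cells from which T cells had been removed (TCD). The recipients with graft-versus-host disease (GVHD), the attack of donor T cells on host tissue, also received 500000 splenic T cells, and the TCD recipients received none and served as controls without GVHD. Whole hippocampus was taken at day 80 from 3 GVHD and 3 TCD recipients. Cells were sorted at day 70 into donor cells labelled bone marrow derived macrophages from GVHD mice (6 libraries), host microglia from GVHD mice (4 libraries) and host microglia from TCD mice (3 libraries). Both host groups are thus irradiated and transplanted, and no untreated brain was analysed here. Strain, age and the gate of the sort are not given in the sources used here.

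Lysosomes are acidic organelles in which hydrolases break down lipids, sugars, proteins and nucleic acids taken up from outside or delivered from within the cell. A proton pump, the V-ATPase, keeps them acidic, heavily glycosylated membrane proteins line them, and small activator proteins present lipids to the enzymes. In the brain, microglia and infiltrating macrophages are rich in lysosomes and clear myelin and dying cells, and inherited loss of many of these enzymes causes storage disease with neurodegeneration.

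Tfeb encodes a transcription factor that binds the palindrome CACGTG, best in the longer form TCACGTGA, in the promoters of many lysosomal genes. RefSeq promoter windows on GRCm38.p6, 250 bases before to 50 bases after each start site, were found for 35 of the 40 genes. Npc1, Plbd2, Asah1, Atp6v0d2 and Atp6v1b2 had no entry. CACGTG, which reads the same on both strands, was in the windows of 11 of the 35 genes (31.4%): Arsa, Atp6v0d1, Atp6v1a, Gaa, Gla, Glb1, Lamp1, Mcoln1, Naglu, Plbd1 and Sgsh. Of all 27025 genes with a window, 8.09% had it. TCACGTGA, which contains CACGTG, was in those of Atp6v0d1, Atp6v1a, Gla and Mcoln1 (11.4% of 35, against 1.12% of all genes). These 5 stretches are printed 5′ to 3′ on the gene's strand because they hold the long form or, for Lamp1, 4 copies of the short form, with the matching letters in capitals. They are Gla (chrX:134601167-134601255, minus strand), Atp6v1a (chr16:44139358-44139417, minus strand), Atp6v0d1 (chr8:105566035-105566094, minus strand), Mcoln1 (chr8:3500421-3500506, plus strand) and Lamp1 (chr8:13159073-13159178, plus strand).
Gla: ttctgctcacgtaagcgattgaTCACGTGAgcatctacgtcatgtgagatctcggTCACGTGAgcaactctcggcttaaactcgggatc
Atp6v1a: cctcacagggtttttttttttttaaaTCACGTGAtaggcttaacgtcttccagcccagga
Atp6v0d1: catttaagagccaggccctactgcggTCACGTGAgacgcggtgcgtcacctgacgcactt
Mcoln1: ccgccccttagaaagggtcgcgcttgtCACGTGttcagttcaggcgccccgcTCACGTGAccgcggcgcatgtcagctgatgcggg
Lamp1: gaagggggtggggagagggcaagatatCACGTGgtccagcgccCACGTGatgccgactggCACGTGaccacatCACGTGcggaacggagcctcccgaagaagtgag
A match describes the letters only. Of the 11 genes with CACGTG, Gla, Atp6v1a, Atp6v0d1, Plbd1 and Sgsh were called higher in donor cells than in GVHD host microglia below. Arsa, Gaa, Glb1, Lamp1, Mcoln1 and Naglu were not called. Beside this, 12 of the 39 tested lysosomal genes and 19.4% of all tested genes were called higher. The calls of Sgsh and Atp6v0d1 were lost in several alternative fits. Whether the motif bears on these levels was not tested.

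All levels are normalised counts. Their totals differed between groups, at 1051505 to 1090631 in donor and 890565 to 961740 in host libraries, and at 982114 to 988044 in GVHD and 1019598 to 1078636 in TCD hippocampus. Rescaling to equal totals, an alternative chosen after the data were seen, therefore moves donor values down against host values and GVHD hippocampus up against TCD, and its effect is given beside the results it changes. Library depth was an estimated 16673539 to 18546881 reads in hippocampus and 7901551 to 35844413 in sorted cells. The cell labels were checked against defining genes. The 10 microglia genes together summed to 44003 to 64209 in the 7 host libraries and 12738 to 18528 in donor cells, and 10 genes of marrow-derived brain macrophages to 146709 to 173348 in donor cells and 2747 to 21825 in host libraries, the highest of these in GVHD host library 1. Of 10 neutrophil markers 8 were listed (not Elane and Mpo). They summed to 622 in donor library 1 and 19.9 to 131 in the other 5, against 0.446 to 21.0 in GVHD host and 2.05 to 115 in TCD host libraries, and 6 of the 8 were called higher in donor than in GVHD host cells. Without the donor libraries, Mmp9, Retnlg and Lcn2 would not have passed the filter of a value of 1 in at least 3 libraries. These genes therefore carry no weight in that count. The part of neutrophils in the lysosomal differences was not tested. The titles split the sorted libraries by an API number, shared by library 1 of each group and different for the other 10 libraries (the larger API set), and it was a term of the model. TCD host library 1 has a description that differs from its title ("Syn" in place of TCD), and was kept under its title. The labels do not say that each library came from a separate animal, so the p-values measure the spread between libraries, which may be in part technical.

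Measured as normalised count per kb of principal transcript, the scale on which genes can be compared, Psap stood first in all 5 groups. Psap encodes prosaposin, the precursor of the saposins that help enzymes reach sphingolipids. Its mean level was 3620 per kb in donor cells, 1974 in GVHD host microglia, 1703 in TCD host microglia, 584 in GVHD hippocampus and 626 in TCD hippocampus. Laptm5, Cd68 and Grn followed in all 3 sorted groups: 827, 751 and 571 per kb in donor cells and 1481, 731 and 607 in GVHD host microglia. In hippocampus the order was another one, with the proton pump subunit Atp6v1b2 second (204 per kb in GVHD and 232 in TCD). The 40 genes made up 2.29% ± 0.18 (SD, n = 6) of all normalised counts in donor cells, 2.17% ± 0.23 (n = 4) in GVHD host microglia and 2.13% ± 0.34 (n = 3) in TCD host microglia. Those 3 shares overlap within their spread. The share in hippocampus was 0.642% ± 0.014 (n = 3) in GVHD and 0.631% ± 0.025 (n = 3) in TCD.

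Between donor macrophages and the host microglia of the same disease, lysosomal genes differed in RNA level in both directions. Of the 39 tested genes, 12 were higher in donor cells, 5 were lower and 22 did not pass. Called means an adjusted p below 0.05 in limma, a linear model over log2(normalised count + 1) with adjustment over all 13086 genes tested, and every difference below is on that scale. Among all tested genes 19.4% were called higher and 19.2% lower, so calls in both directions were not particular to this set. The median difference of the 39 was 0.25 (log2), against 0.04 over all tested genes. In alternative fits it ran from 0.07 (a block by title number) to 0.28 (without GVHD host library 3). Without GVHD host library 1 it was 0.08, against 0.04 over all tested genes. The clearest differences were Plbd1, Acp5, Galc, Lipa and Psap on the donor side and Arsb and Laptm5 on the host side. The 2 groups did not overlap for 12 genes on the donor side and 4 on the host side, where 27.9% of all tested genes did not overlap. With equal totals, 10 genes were higher and 10 lower, the median over all tested genes moved to −0.12 and calls over all genes to 1835 higher and 3618 lower, from 2533 and 2519. Neu1 (adjusted p = 0.135) and Atp6v0d1 (0.462) were then lost, and Lamp2 (−0.39), Gusb (−0.29), Man2b1 (−0.58), Fuca1 (−0.26) and Ppt1 (−0.29) were added on the host side. The groups then did not overlap for 7 genes on the donor and 9 on the host side, and Gla, Sgsh, Neu1, Atp6v1a and Atp6ap1 came to overlap. Atp6v0d2 was listed but lay below the filter of a value of 1 in at least 3 libraries.

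The lipid group moved most evenly: 4 of its 5 genes, Plbd1, Lipa, Psap and Npc2, were higher in donor cells and none was lower. Plbd1 (ENSMUSG00000030214, chromosome 6, 136612070 to 136661928, minus strand, GRCm38) encodes a phospholipase B-like protein of the lysosome lumen. Its normalised count in donor cells ran from 189 to 622 with a median of 417. In host microglia it was 15.8, 4.30, 1.59 and 4.65 with GVHD and 4.80, 0.422 and 1.69 in TCD mice. Every donor library lay far above every host library. The log2 difference from GVHD host microglia was 6.04 ± 0.38 (SE; adjusted p = 9.43e-08, limma), the largest increase among all 13086 tested genes. GVHD host library 1, with the highest level of macrophage genes among host libraries, held 3.78% of the donor median, and the other 6 host libraries 0.101% to 1.15%. Whether donor RNA in the host sort contributed to these values was not tested.

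Lipa encodes lysosomal acid lipase, which frees cholesterol and fatty acids from lipoproteins. Donor libraries ran from 442 to 563 (median 507), and GVHD host libraries read 321, 241, 292 and 239. Its log2 difference was 0.92 ± 0.09 (adjusted p = 5.56e-06, limma), and the groups did not overlap. For Psap, donor libraries ran from 8743 to 11169 (median 9494) and GVHD host libraries read 5835, 5310, 4885 and 4947. Psap was thus higher in every donor library, by 0.89 ± 0.09 on the log2 scale (adjusted p = 5.82e-06, limma). Npc2, the soluble carrier that hands cholesterol to Npc1, ran from 1221 to 1689 (median 1473) in donor cells and read 884, 1076, 921 and 1010 in GVHD host cells, without overlap (0.57 ± 0.11, adjusted p = 0.00131, limma). Its partner Npc1, the membrane cholesterol exporter, was not called (147 ± 24.5 in donor and 126 ± 18.3 in GVHD host cells). Plbd2, the paralogue of Plbd1, was not called either: its donor range, 32.8 to 158, enclosed all 4 GVHD host values (0.48 ± 0.37, adjusted p = 0.339, limma).

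**Figure D1:**
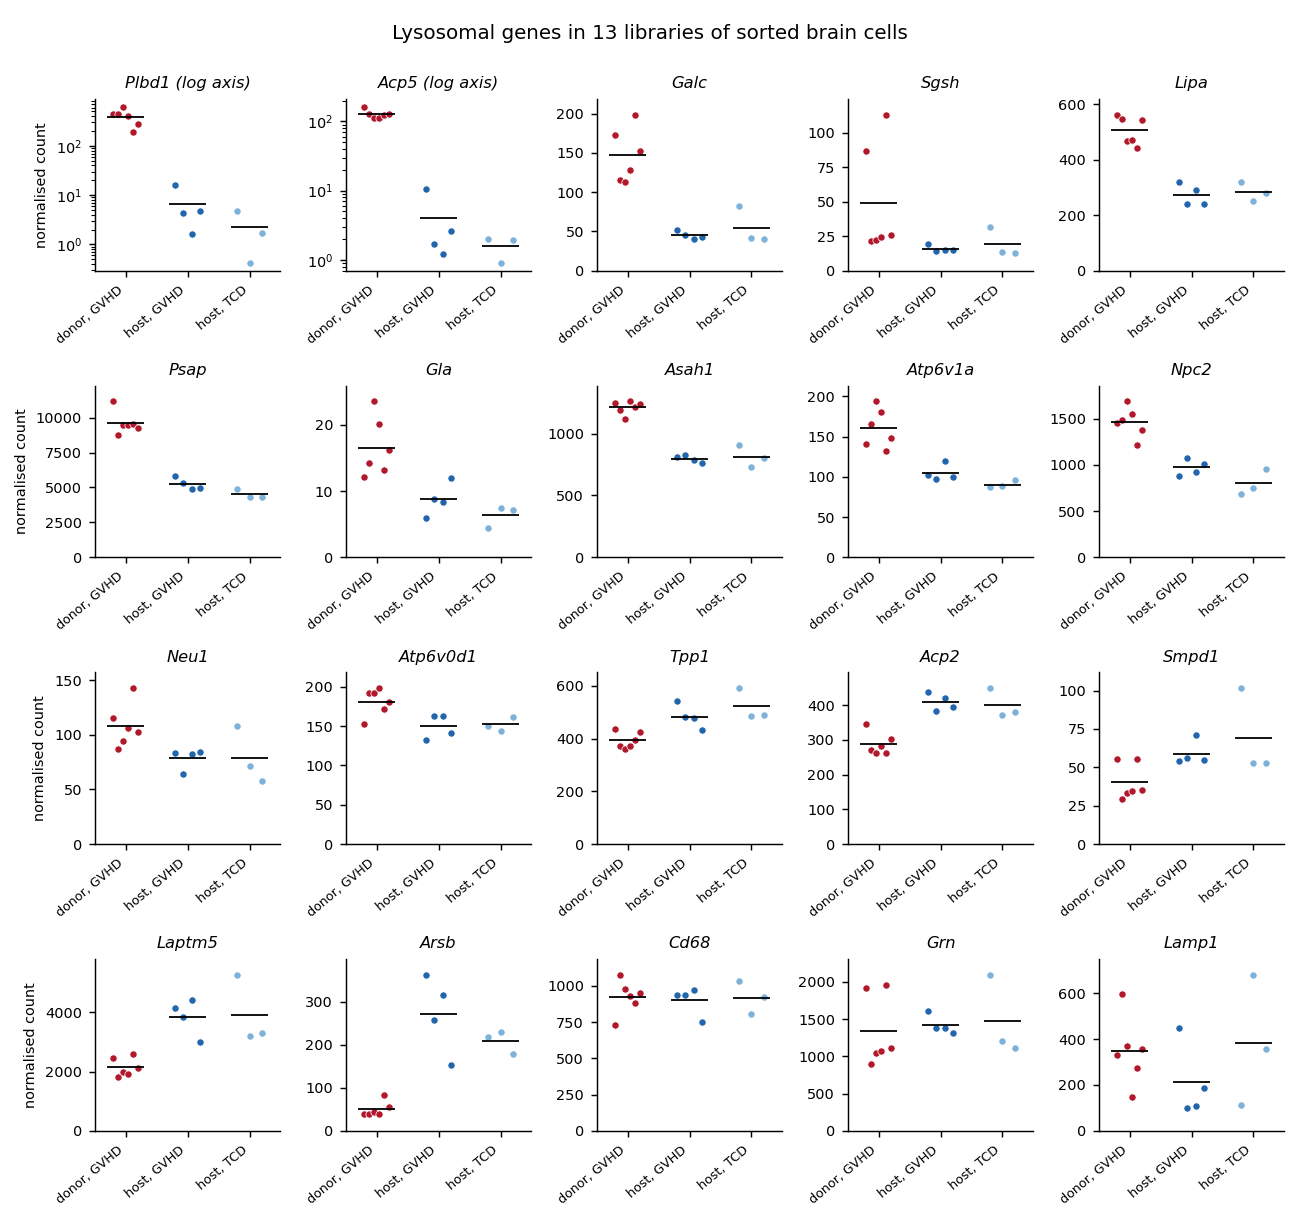
Normalised count of 20 lysosomal genes in each of 13 sorted libraries, by group: donor macrophages (GVHD mice), host microglia (GVHD mice) and host microglia (TCD mice). Points are libraries and lines are group means. The panels of Plbd1 and Acp5 have log axes and the rest start at 0. Plbd1 and Acp5 separate the donor libraries from every host library, while Cd68, Grn and Lamp1, in the last panels, overlap between groups.

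Among the 7 sphingolipid hydrolases, Galc, Gla and Asah1 were higher in donor cells, Smpd1 was lower and Hexa (632 ± 81.8 in donor and 651 ± 24.7 in GVHD host cells), Glb1 and Arsa were not called. Galc (ENSMUSG00000021003, chromosome 12, 98202294 to 98259459, minus strand) encodes the enzyme that degrades galactosylceramide, a main lipid of myelin. Donor libraries ran from 113 to 199 (median 140), against 51.5, 45.8, 40 and 43.1 in GVHD host cells, and no value overlapped. The log2 difference was 1.69 ± 0.17 (adjusted p = 4.45e-06, limma). Asah1, acid ceramidase, was among the most even genes: donor libraries ran from 1122 to 1262 and GVHD host libraries from 764 to 825 (0.62 ± 0.08, adjusted p = 3.39e-05, limma). Gla, which removes galactose from globotriaosylceramide, was low in all groups, at 12.1 to 23.5 in donor and 5.93, 8.85, 8.35 and 12 in GVHD host cells (0.80 ± 0.17, adjusted p = 0.00230, limma). Its lowest donor and highest host libraries nearly met. Smpd1, acid sphingomyelinase, averaged 40.5 ± 11.7 in donor and 58.9 ± 8.26 in GVHD host cells, with donor libraries 1 and 5 (55.1 and 55.4) inside the host range. Its call was at the edge of the threshold (−0.53 ± 0.20, adjusted p = 0.0493, limma) and was lost in 8 of the 10 fits that left out a library, those without donor library 5 and without GVHD host library 1 being the exceptions.

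The glycosaminoglycan enzymes held the largest decrease. Arsb (ENSMUSG00000042082, chromosome 13, 93771630 to 93943016, plus strand) encodes the sulfatase that acts on dermatan and chondroitin sulfate. Donor libraries ran from 38.8 to 82.6 (median 41.5), and GVHD host libraries read 363, 257, 316 and 153. All host libraries lay above all donor libraries, and the log2 difference was −2.40 ± 0.26 (adjusted p = 9.65e-06, limma). Sgsh, a sulfatase of heparan sulfate, went the other way: donor libraries ran from 21.4 to 113 (median 25.1) and GVHD host libraries read 19.0, 14.0, 14.7 and 14.9. The groups did not overlap, but donor libraries 1 and 5 (86.6 and 113) stood above the other 4 (21.4 to 25.9). The difference of 1.32 ± 0.40 (adjusted p = 0.0190, limma) had adjusted p = 0.0566 without donor library 1, 0.0719 without GVHD host library 1 and 0.0959 within the larger API set. Gusb (β-glucuronidase), Ids (iduronate sulfatase), Idua (iduronidase) and Naglu (an N-acetylglucosaminidase) were not called. Gusb was nearly level, at 331 ± 19.3 in donor and 356 ± 14.8 in GVHD host cells.

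Of the enzymes that trim glycoproteins and glycogen, Neu1, the lysosomal sialidase, was called higher in donor cells: 86.9 to 143 (median 104) against 82.9, 64.3, 82.8 and 83.9. The groups were only just apart, and the difference was 0.47 ± 0.16 (adjusted p = 0.0297, limma). The call was lost without donor library 4 (adjusted p = 0.0502) and without GVHD host library 1 (0.0933) or 2 (0.0992). Man2b1 (α-mannosidase), Fuca1 (α-fucosidase) and Gaa (acid α-glucosidase, which degrades glycogen) were not called. Tpp1, a tripeptidyl peptidase, was lower in donor cells (359 to 437, median 383) than in GVHD host cells (541, 480, 477 and 431), with an overlap of the highest donor and lowest host libraries (−0.28 ± 0.07, adjusted p = 0.00981, limma). Ppt1, which removes palmitate from proteins, and Grn, the precursor of lysosomal granulins, were not called. Grn ran from 896 to 1961 in donor cells and read 1604, 1378, 1386 and 1312 in GVHD host cells, inside the donor range (−0.10 ± 0.19, adjusted p = 0.691, limma). In the larger API set less donor library 5, chosen after the data were seen, Grn was called lower (−0.40, adjusted p = 0.00769, limma).

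The 2 acid phosphatases went in opposite directions. Acp5 (ENSMUSG00000001348, chromosome 9, 22126727 to 22135711, minus strand), the tartrate-resistant form known from osteoclasts and some macrophages, ran from 111 to 163 (median 126) in donor cells. GVHD host libraries read 10.4, 1.71, 1.21 and 2.61 and TCD host libraries 1.99, 0.905 and 1.93. Every donor library was above every host library, and GVHD host library 1 was the highest host library, as for Plbd1. The log2 difference from GVHD host cells was 5.09 ± 0.26 (adjusted p = 2.01e-08, limma). An opposite-strand transcript, 6530413G14Rik, covers the whole Acp5 locus, and whether the counting used strand is not stated. Acp2, the general lysosomal acid phosphatase, was lower in donor cells, at 262 to 346 (median 277) against 438, 383, 421 and 395, without overlap (−0.49 ± 0.07, adjusted p = 0.000163, limma). Of 7 osteoclast-like genes, Acp5 and Atp6v0d2 included, 5 were listed and 3 tested, and 1 of these, Dcstamp, reached the filter through donor libraries alone, so no count is given. The sum of the 5 was 132 to 178 in donor libraries and 1.53 to 11 in host libraries, most of it Acp5, and Ctsk and Calcr were not listed.

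Of the 7 membrane proteins none was called higher and Laptm5 was called lower. Laptm5 (ENSMUSG00000028581, chromosome 4, 130913125 to 130936141, plus strand) encodes a lysosomal membrane protein of blood-derived cells. Donor libraries ran from 1817 to 2606 (median 2046) and GVHD host libraries read 4132, 3848, 4418 and 3009. The groups did not overlap (−0.81 ± 0.14, adjusted p = 0.000609, limma). Cd68, the lysosomal glycoprotein used to stain macrophages, was level: 924 ± 114 (SD, n = 6) in donor, 899 ± 102 (n = 4) in GVHD host and 919 ± 113 (n = 3) in TCD host cells (donor minus GVHD host 0.03 ± 0.12, adjusted p = 0.851, limma). Lamp2, a receptor of chaperone-mediated autophagy, was below the host range in all 6 donor libraries (730 to 908 against 959 to 1082) but missed the threshold (−0.22, adjusted p = 0.0619, limma). Lamp1 varied most among the membrane genes, with 332, 596, 369, 147, 274 and 357 in donor libraries and 450, 97.7, 110 and 185 in GVHD host libraries. It overlapped widely (0.88 ± 0.54, adjusted p = 0.228, limma), passed without GVHD host library 1 (1.49, adjusted p = 0.0304) and within the larger API set (1.32, adjusted p = 0.0262), and its locus overlaps Grtp1 on the opposite strand. Scarb2, a carrier of glucocerebrosidase, and the calcium channel Mcoln1 were not called.

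Of the proton pump, Atp6v1a and Atp6v0d1 were higher in donor cells and none of the 4 tested subunits was lower. Atp6v1a, the catalytic subunit, ran from 132 to 194 (median 157) in donor cells and read 102, 97.3, 119 and 99.9 in GVHD host cells, without overlap (0.59 ± 0.11, adjusted p = 0.00103, limma). Atp6v0d1, part of the stalk that joins the turning and the membrane part of the pump, ran from 153 to 199 against 132, 163, 163 and 141 and overlapped (0.26 ± 0.08, adjusted p = 0.0272, limma). That call was lost without donor library 2, 3 or 4 or GVHD host library 1 or 4, with adjusted p from 0.0511 to 0.103. Its paralogue Atp6v0d2, the form known from osteoclasts, read 0.434 to 1.48 in donor cells, 0, 0.506, 0.191 and 0.340 in GVHD host cells and 0.519, 0 and 0 in TCD host cells, below the filter. Tested without a filter, it was higher in donor than in GVHD host (0.59 ± 0.19, adjusted p = 0.0237, limma) and TCD host cells (0.71 ± 0.21, adjusted p = 0.0165), at values that rest on few reads. Atp6v1b2 (315 ± 64.0 against 241 ± 4.78) and the accessory subunit Atp6ap1 (645 ± 21.1 against 601 ± 16.0) were not called. Atp6v1b2 passed without donor library 5 (0.44, adjusted p = 0.00202, limma) and with a block for libraries of the same title number (0.50, 0.00512). Tfeb itself read 22.0, 9.54, 10.5, 10.4, 19.2 and 9.51 in donor libraries and 12.5, 6.70, 9.56 and 8.40 in GVHD host libraries, which overlapped (0.52 ± 0.20, adjusted p = 0.0598, limma). After a correction for GC content it passed (0.38, adjusted p = 0.0249, limma).

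**Figure D2:**
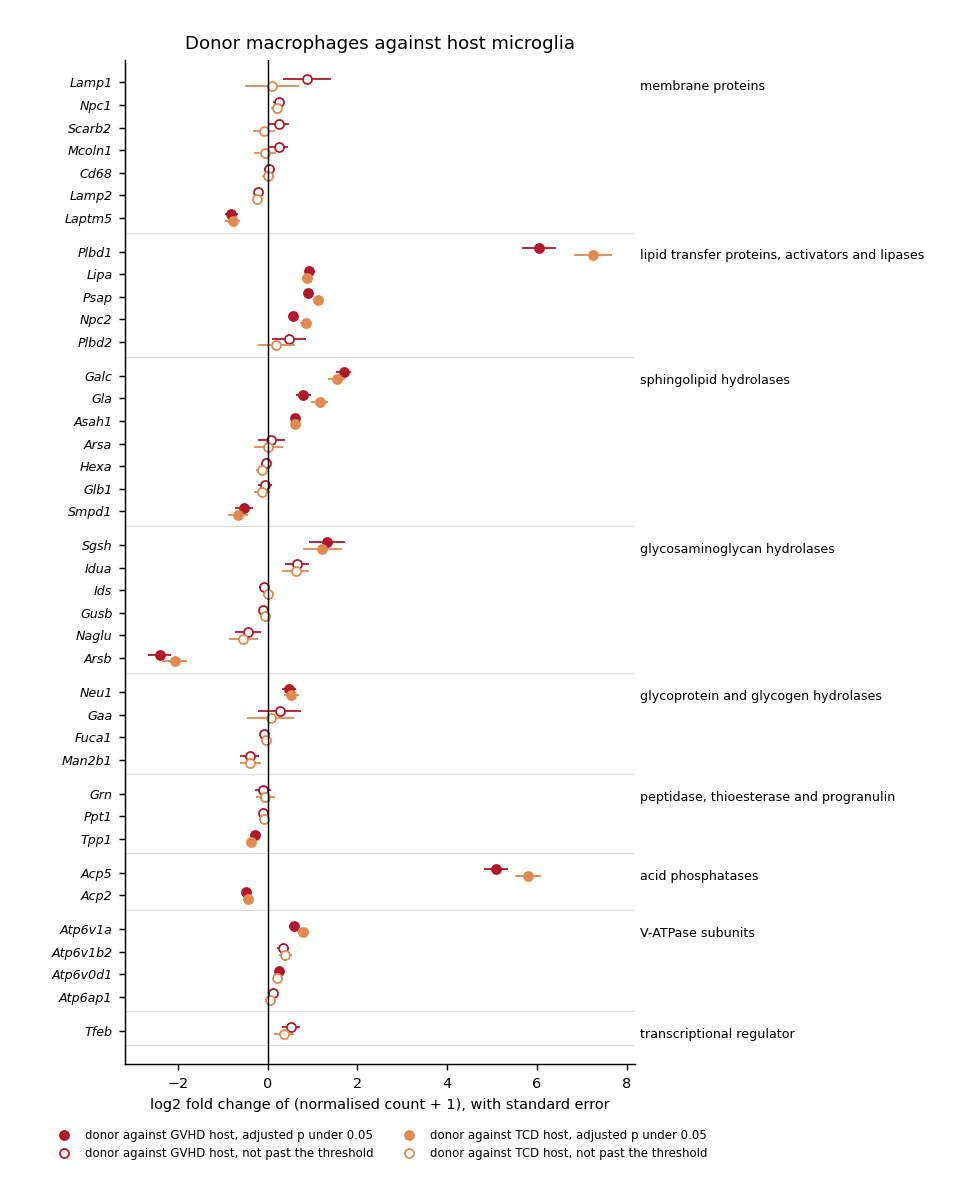
Log2 fold change of (normalised count + 1) with its standard error for 39 lysosomal genes by role, donor macrophages (6 libraries) against GVHD host (4) and TCD host microglia (3). Filled points have an adjusted p under 0.05. Plbd1 and Acp5 lie furthest to the right and Arsb furthest to the left, and most of the other genes lie within 1 unit of 0.

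Of the 17 calls, 12 were kept in all 27 alternative fits, namely those of Plbd1, Acp5, Galc, Gla, Lipa, Psap, Npc2, Asah1, Atp6v1a, Arsb, Laptm5 and Acp2. A block for libraries that share a number in the descriptions lost Smpd1 (adjusted p = 0.156), Neu1 (0.0582), Tpp1 (0.0740) and Atp6v0d1 (0.106), leaving 10 higher and 3 lower. Within the larger API set, 11 were higher and 5 lower, with Sgsh and Neu1 (adjusted p = 0.0562) lost and Lamp1 added, and the other set, with 1 library a group, gives no test.

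Against TCD host microglia the same donor libraries gave 11 genes higher, 5 lower and 23 not called, with 18.4% of all tested genes called higher and 18.6% lower. The 2 comparisons share the donor libraries, so they are not separate evidence. Both comparisons called 16 genes. Atp6v0d1 passed against GVHD host cells and not against TCD host cells, which does not show that the 2 differ. The groups did not overlap for 9 genes on the donor side and 5 on the host side, where 29.5% of all tested genes did not overlap. The median of the 39 was 0.06, against −0.01 over all tested genes. Plbd1 differed by 7.24 ± 0.42 (adjusted p = 5.83e-08, limma), again the largest increase of all tested genes, and Acp5 by 5.80 ± 0.29 (adjusted p = 2.62e-08).

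The next largest differences from TCD host cells were those of Arsb and Galc. Arsb read 218, 231 and 178 in TCD host libraries and was lower in donor cells by 2.07 ± 0.28 (log2 −2.07, adjusted p = 9.15e-05, limma). Galc read 81.9, 41.3 and 40.7, below every donor library (1.54 ± 0.18, adjusted p = 2.72e-05). Gla (1.16), Psap (1.12), Lipa (0.88), Npc2 (0.85), Atp6v1a (0.79) and Laptm5 (−0.78) followed, each apart from the donor range. Sgsh (1.22, adjusted p = 0.0451), Neu1 (0.53, 0.0293) and Smpd1 (−0.66, 0.0305) overlapped with donor values. They were lost without certain libraries: Sgsh without donor library 1 or 6 or any TCD host library (adjusted p up to 0.137), Neu1 without TCD host library 2 or 3 (up to 0.200) and Smpd1 in 7 of 9 such fits (up to 0.156). A block for libraries with the same title number gave 11 higher and 6 lower. It lost Neu1 (adjusted p = 0.115) and added Atp6v1b2 on the donor side (0.00625) and Naglu on the host side (−0.82, 0.0464). Donor and TCD host libraries come from different mice, so this block does not pair animals. The larger API set alone gave 10 and 4, without Sgsh (adjusted p = 0.105) and Smpd1 (0.0899), and equal totals gave 9 and 7.

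Beyond the 40 genes, other parts of the lysosome system had calls in each direction between donor and GVHD host cells, to be read against the 19.4% of all tested genes called higher and 19.2% called lower. Of 22 other hydrolases and cofactors 4 were higher and 8 lower. Lyz2, macrophage lysozyme, was higher (14580 ± 2986 against 639 ± 193), and it also stands on the lists of cell type markers. Of 23 other membrane proteins tested 4 were higher and 5 lower, with Cd63 highest above host cells (597 ± 63.8 against 225 ± 10.7). Of 15 other pump subunits 3 were higher and 4 lower, and Atp6v0a2 (−1.35), Atp6v1c1 (−0.79) and Atp6v0e2 (−2.43) had the smallest p-values, all lower in donor cells. Of 19 relatives of Tfeb and scaffold genes of the growth kinase mTORC1, 7 were higher and 1 lower. Tfec, a relative of Tfeb found in macrophages, read 14.0 ± 4.01 in donor and 1.51 ± 0.714 in GVHD host cells (2.59 ± 0.23, adjusted p = 1.91e-06, limma), and Rptor, an mTORC1 subunit, was lower (40.5 ± 19.0 against 111 ± 17.9). Of 21 sorting genes 5 were higher and 1 lower, the last being Sort1, a sorting receptor (12.5 ± 3.05 against 79.4 ± 4.02). Among 13 cathepsins and cystatin C, 3 were higher and 5 lower, with Ctsb higher (1.00) and Ctsf (−2.74) and Cst3 (−2.21) lower in donor cells. These lists were drawn up with earlier results of the data known.

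Between host microglia of GVHD and TCD mice none of the 39 lysosomal genes was called, 2 had an unadjusted p under 0.05 in limma, and the median difference of GVHD minus TCD was −0.03, as over all tested genes (−0.03). Of all tested genes 0.107% were called, 6.85% had an unadjusted p under 0.05 and 6.55% did not overlap. The 4 smallest p-values were those of Plbd1 (1.2 ± 0.45, adjusted p = 0.609, limma), Acp5 (0.71 ± 0.31, 0.715), Psap (0.23 ± 0.11, 0.720) and Npc2 (0.28 ± 0.13, 0.746). For Plbd1 and Acp5 the highest value was that of GVHD host library 1. The 10 marrow-derived macrophage markers summed to 8104 to 21825 with GVHD and 2747 to 5466 in TCD mice, without overlap. Cd74, H2-Ab1 and Apoe made up most of each sum, so the sum says little of the others. Of the 10 markers, 9 were above 0 and 1 below, 2 were called higher with GVHD and only 2 did not overlap. Their part in these values was not tested. Psap read 5835, 5310, 4885 and 4947 with GVHD and 4922, 4351 and 4299 in TCD mice, and only the ranges' edges met. Atp6v1a was the only gene whose groups did not overlap (97.3 to 119 against 86.8 to 95.6, 0.20 ± 0.13, adjusted p = 0.839).

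The members that are named throughout were no clearer between the 2 host groups. Lamp1 read 111, 680 and 355 in TCD host libraries, a wider spread than any difference (−0.79 ± 0.64, adjusted p = 0.884, limma). Cd68 (−0.03), Grn (0.05), Tfeb (−0.15), Plbd2 (−0.28) and Atp6v0d1 (−0.04) differed by no more than about 1 standard error. None of the other lysosomal lists had a called gene either, and the 10 microglia markers had none, while 1 of 6 tested astrocyte markers was called higher with GVHD. With 4 against 3 libraries, a gene such as Gaa, whose TCD host libraries read 253, 50.5 and 42.7, could change by a good deal without being called.

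**Figure D3:**
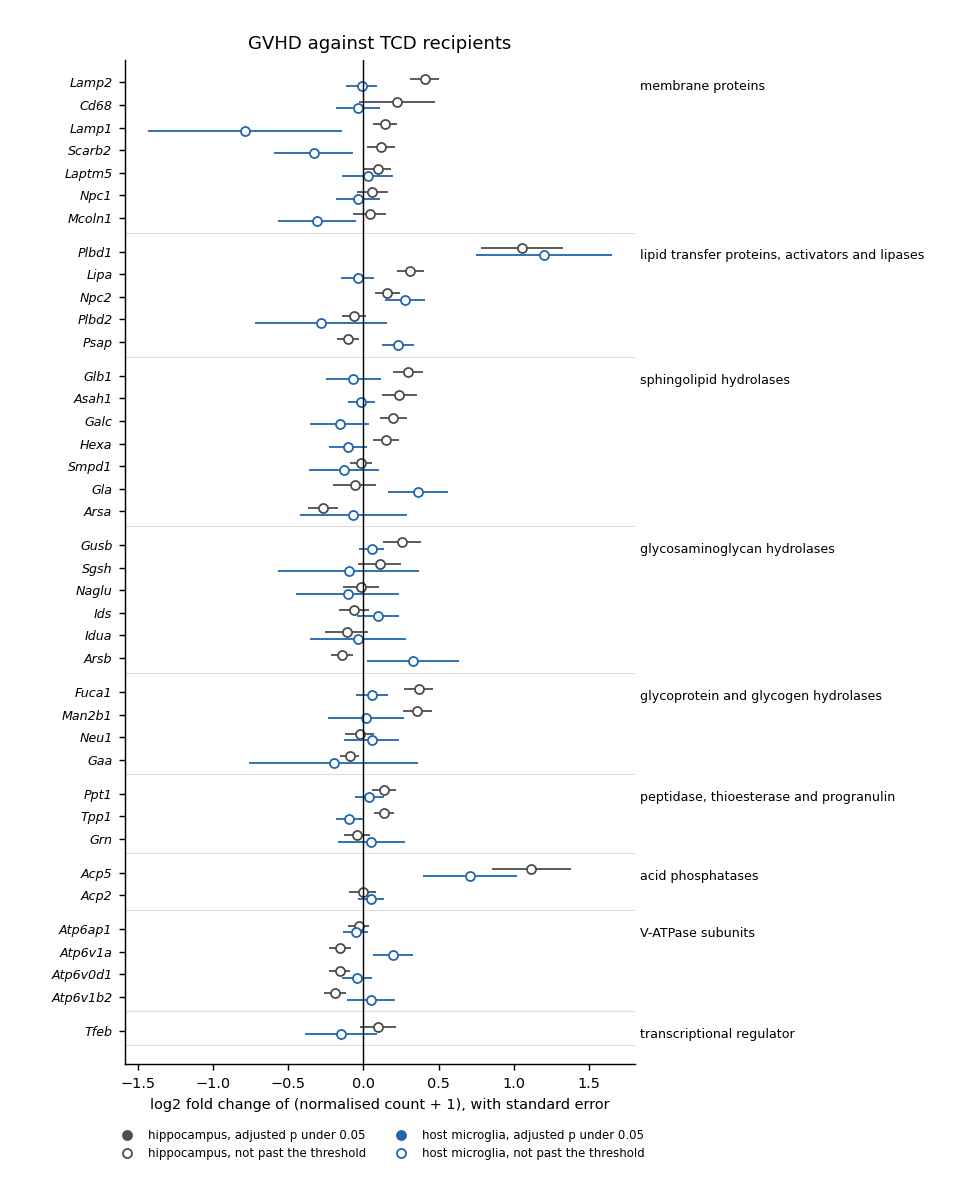
Log2 fold change of (normalised count + 1) with its standard error for 39 lysosomal genes by role, GVHD against TCD recipients, in hippocampus (3 against 3 libraries) and in sorted host microglia (4 against 3). All points are open because none had an adjusted p under 0.05. Plbd1 and Acp5 lie furthest to the right in both. In hippocampus these genes entered the test only through GVHD libraries, and in host microglia both were highest in GVHD host library 1. The 4 pump subunits lie left of 0 in hippocampus.

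In whole hippocampus, too, no lysosomal gene passed: 0 of 39 at an adjusted p under 0.05 in limma, 9 at an unadjusted p under 0.05. Over all 14404 tested genes, 0.479% were called and 17.0% had an unadjusted p under 0.05. GVHD minus TCD was above 0 for 22 genes and below for 17, with a median of 0.10 against 0.00 over all tested genes. There were 10 genes higher in all 3 GVHD libraries than in all 3 TCD libraries and 7 lower, where 10.8% of all tested genes lay wholly higher and 13.2% wholly lower. The 10, the 22 above 0 and the 9 at an unadjusted p under 0.05 include Acp5 and Plbd1. Both genes passed the filter only through the GVHD libraries, so the filter set their side and they carry no weight in these counts. With equal totals the groups did not overlap for 16 genes on the GVHD and 2 on the TCD side, 31 genes were above 0 and 8 below, and still none was called. In whole tissue, fewer cells of a type and less RNA per cell cannot be told apart.

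Lamp2 (ENSMUSG00000016534, chromosome X, 38401357 to 38456454, minus strand) had the smallest p. It read 113, 98.6 and 117 in GVHD and 74.6, 89.6 and 82.9 in TCD hippocampus. The groups did not overlap, and the difference was 0.41 ± 0.10 (adjusted p = 0.0915, limma). Acp5 read 1.62, 3.01 and 1.17 against 0.465, 0.119 and 0.367 (1.12 ± 0.26, adjusted p = 0.0949), and Plbd1 2.32, 4.03 and 1.47 against 0.872, 0.653 and 0.489 (1.05 ± 0.27, adjusted p = 0.114). Both were higher in each GVHD library, but they entered the test only through those libraries, since no TCD library reached 1. GVHD library 2 was the highest for both. Fuca1 read 33.6, 32.0 and 33.0 against 27.2, 26.2 and 22.6 (0.37 ± 0.09, adjusted p = 0.114).

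The other genes without overlap fall into groups by direction. Man2b1, Lipa, Glb1, Galc, Npc2 and Tpp1 lay higher in every GVHD library, by 0.14 to 0.36 on the log2 scale. Psap, Arsa, Arsb, Gaa, Atp6v0d1, Atp6v1a and Atp6v1b2 lay lower. Psap read 1592, 1532 and 1532 in GVHD and 1671, 1650 and 1669 in TCD hippocampus. All 4 tested pump subunits were below 0, between −0.19 for Atp6v1b2 (607, 578 and 540 against 647, 654 and 662) and −0.03 for Atp6ap1, and all 7 membrane genes above 0, between 0.04 for Mcoln1 and 0.41 for Lamp2. With equal totals Psap, Arsb, Gaa, Atp6v0d1 and Atp6v1b2 came to overlap and Atp6ap1 turned to 0.05, and with quantile normalisation Psap turned to 0.05, Gaa to 0.02 and Atp6ap1 to 0.06, while the other 3 pump subunits stayed below 0 and the 7 membrane genes above 0 under both. None of these differences passed the threshold. Cd68 (9.75 ± 3.63 against 7.91 ± 1.44), Lamp1 (364 ± 8.96 against 331 ± 28.5), Grn (58.2 ± 4.31 against 60.0 ± 4.52), Tfeb (7.42 ± 0.406 against 6.86 ± 0.372) and Plbd2 (63.4 ± 4.85 against 66.3 ± 2.63) overlapped.

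Of the lists of cell type markers, only that of the choroid plexus had called genes in hippocampus. The 10 choroid plexus markers summed to 3273, 1077 and 3775 in GVHD and 110, 44.1 and 30.7 in TCD libraries, with 9 of 10 called higher. Kcne2, Folr1 and Tmem72 reached 1 in no TCD library. The filter set their side, so these genes carry no weight in that count. The 8 neuron markers summed to 9837 to 10026 in GVHD and 10971 to 12859 in TCD libraries, and the 8 oligodendrocyte markers to 4852 to 6663 and 3502 to 5247, with none called in either list. Of the 8 neuron markers, 6 lay lower in every GVHD library and 1, Gad1, lay higher. The sums of the oligodendrocyte, astrocyte and endothelium markers overlapped between the groups. The 10 macrophage markers summed to 2132, 3344 and 1702 against 2030, 1779 and 1387, the highest in GVHD library 2. Apoe made up most of each of these sums (1815, 2663 and 1578 against 1910, 1698 and 1360). Of the 8 macrophage markers tested, 7 were above 0 and 1 below, 3 did not overlap and none was called. The microglia markers summed to 226 to 308 against 274 to 330. The part of these cell types in the lysosomal values was not tested. The other lysosomal lists had no called gene in hippocampus. The smallest adjusted p was that of Cd63, a tetraspanin of late endosomes (58.7 ± 5.27 against 40.6 ± 1.21, 0.52 ± 0.09, adjusted p = 0.0501, limma), and among the cathepsins that of Ctss (0.65, 0.0959).

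**Figure D4:**
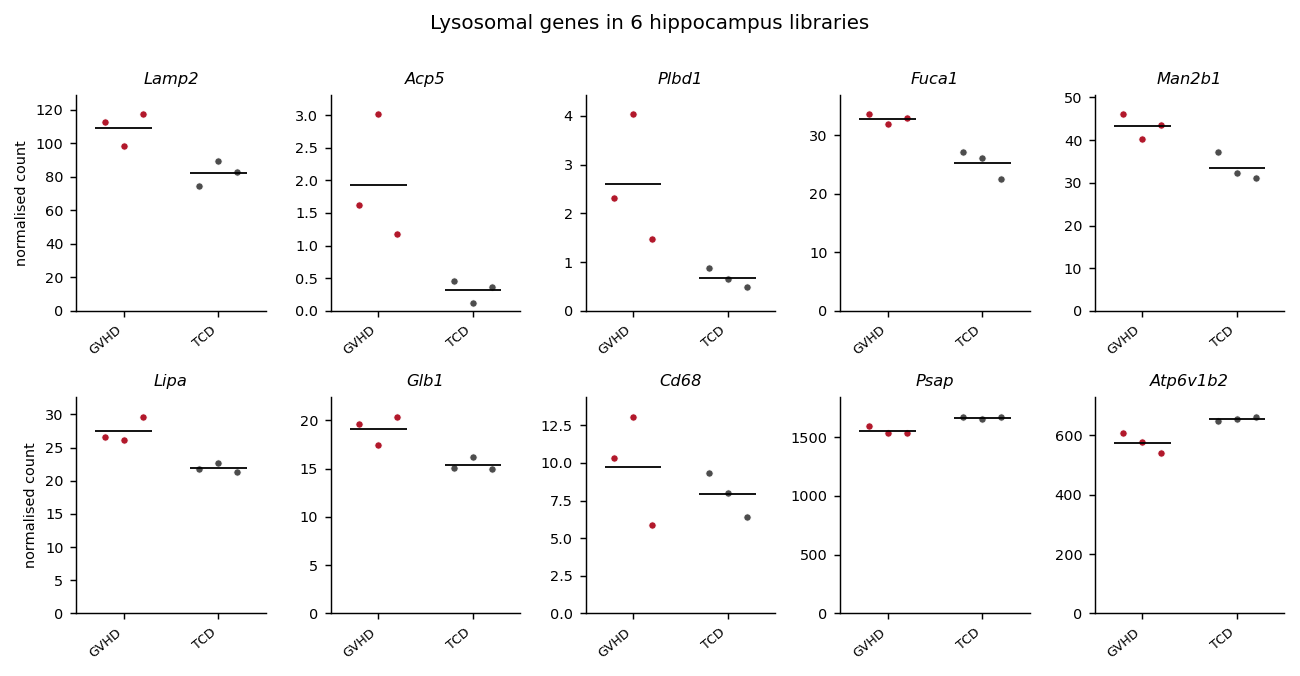
Normalised count of 10 lysosomal genes in 3 GVHD and 3 TCD hippocampus libraries. Points are libraries, lines are group means and every axis starts at 0. The first 7 panels show genes higher in each GVHD library, Cd68 overlaps, and Psap and Atp6v1b2 lie lower in each GVHD library, which both lose when totals are made equal.

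Lysosomal genes differed in how even they were among libraries of one group. In 19 of the 39 genes, donor libraries 1 and 5 both lay above the other 4 donor libraries, and in the same 19 TCD host library 1 lay above the other 2. For Gaa the mean of donor libraries 1 and 5 was 4.77 times that of the other 4, for Sgsh 4.27 times, for Plbd2 3.59 times, for Arsa 2.60 times and for Idua 2.51 times. Of these 19 genes, 14 had a GC content above the median of the 39, 51.6%. Across all tested genes the level rose with GC in those 3 libraries, by 0.283, 0.294 and 0.305 on the log2 scale per 10 percentage points, against −0.180 to 0.068 in the other 10. Those libraries come from both API numbers. A correction for GC gave 12 genes higher in donor than in GVHD host cells and raised those lower from 5 to 7. The 12 had lost Atp6v0d1 (adjusted p = 0.132, limma) and gained Tfeb (0.38, adjusted p = 0.0249). Tfeb also passed against TCD host cells after the correction (0.39, adjusted p = 0.0372, limma). The correction lowered the SD among donors in 22 of the 39 genes. For Tfeb that SD went from 0.51 to 0.21, for Naglu from 0.67 to 0.38, for Laptm5 from 0.21 to 0.06 and for Sgsh from 1.07 to 0.86, and the median of the 39 from 0.25 to 0.24. The cause was not tested.

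The genes that did not follow this pattern included most of the firm calls. Asah1, Lipa, Npc2, Plbd1, Acp5, Arsb and Acp2 had no such split, Atp6v1a and Gla had the reverse one, with donor libraries 1 and 5 below the other 4 (0.793 and 0.686 times), while Galc, Psap and Laptm5 had a small one (1.46, 1.29 and 1.12 times for Galc, Laptm5 and Psap). For Laptm5 it ran toward the host level and for Galc and Psap away from it. Without donor library 5, 13 genes were higher and 7 lower, and without it in the larger API set, an alternative chosen after the data were seen, 14 and 10, with all 17 calls kept.

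**Figure D5:**
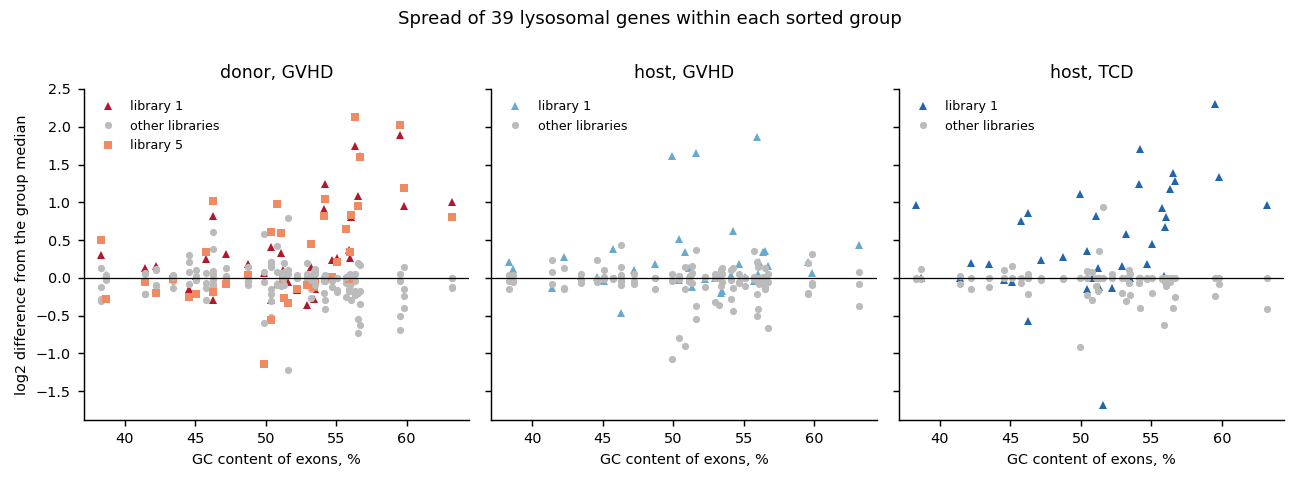
Spread of lysosomal genes among sorted libraries of one group, by GC content of the transcript. Among the 6 donor libraries, Gaa, Sgsh and Plbd2 had the largest SD of log2(normalised count + 1) of the 39 genes. These genes have a GC content above the median of 51.6%, while Lamp1, Plbd1 and Scarb2 spread widely at or below it. A correction for GC lowered the donor SD in 22 of the 39 genes, among them Tfeb and Naglu.

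Some genes kept close company over the 13 sorted libraries, given here as Pearson correlations of log2(normalised count + 1) that include the group differences. Plbd1 was most like Acp5 (0.99), Psap (0.98) and Asah1 (0.95), and Npc2 like Atp6v1a (0.93), Gla (0.92) and Plbd1 (0.90). Tfeb was most like Idua (0.96), Plbd2 (0.90) and Npc1 (0.89), and Grn like Gaa (0.96), Arsa (0.95) and Naglu (0.92), which are genes with the split by library above. Plbd2 was most like Scarb2 (0.93), Gaa (0.93) and Tfeb (0.90), not like its paralogue Plbd1. Atp6v0d1 was most like Atp6v1a (0.83), Atp6v1b2 (0.82) and Npc2 (0.77). Cd68 had its highest value with Fuca1 (0.58), then Atp6v0d1 (0.49) and Gusb (0.34), and Lamp1 with Acp5 (0.34), Lipa (0.33) and Mcoln1 (0.31), so neither followed the other genes closely.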

How the data were processed

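RNA was sequenced from 6 hippocampus and 13 sorted-cell libraries, stranded per the labels, with RNA from either of 2 column kits (which for which is not stated). The deposited signal is normalised counts, for which the submitters' processing notes name GRCm38 and the tools RSEM 1.2.30, STAR 2.5.2a and cutadapt 1.9 without their roles. The annotation, the scaling and the rule that selected the 15634 and 13783 genes are not given in the sources used here. In each library 68.4% to 81.9% of values were multiples of the smallest unit found, so whole reads were not recovered and no count test was run; depth is the total divided by that unit. Identifiers were matched to symbols, GC content and coordinates in GENCODE M21 (GRCm38), and 192 and 213 had no symbol.

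Each table was tested on its own with limma 3.58.1 in R 4.3.3: log2(value + 1), genes reaching 1 in 3 or more libraries, a variance trend, two-sided, Benjamini-Hochberg over all tested genes, called at 0.05. The sorted fit held all 13 libraries with the API number as a term. The script was tested on artificial data. No library duplicated another (0 of 15 and 0 of 78 pairs identical). Donor and GVHD host libraries that share a description number had correlations of deviations of 0.394, 0.362, 0.166 and 0.280. Donor and TCD host libraries come from different mice, so no number pairs them. Those sharing a title number had correlations of 0.585, 0.308 and 0.415, and those sharing a description number 0.585, 0.160 and −0.517. Members and lists were chosen with earlier results of these data known. Named with full statistics were up to 10 called genes per comparison by size, or the 4 smallest p where none was called, and always Lamp1, Cd68, Tfeb, Grn, Npc2, Atp6v0d1, Atp6v0d2, Plbd1 and Plbd2. Other pathway lists name up to 3 genes. Any further named gene was picked after its values were seen. Alternatives changed the pseudocount, filter, scaling (equal totals among them, chosen after the data were seen), trend, fold threshold, blocks, GC correction, covariate, samples modelled and single libraries.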

Additional observations from a re-analysis of the deposited data

Results flagged for a closer look

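In 78 groups of 4 or 6 sorted libraries, 11 values lay far from the nearest of their own group, where chance gives about 5% of groups. Donor library 1 was highest for Psap (11169, next 9549), Acp5 (163, next 130) and Atp6ap1 (687, next 642). Donor library 5 was lowest for Lamp2 (730, next 872). GVHD host library 1 was highest for Acp5 (10.4, next 2.61), Npc1 (154, next 118) and Sgsh (19.0, next 14.9), and it also had the highest sum of marrow-derived macrophage markers among host libraries (21825, against 8104 to 10181 in the other 3 of GVHD mice). GVHD host library 4 was lowest for Cd68 (749, next 937) and Hexa (615, next 660). GVHD host library 2 was lowest for Neu1 (64.3, next 82.8), and library 3 was highest for Smpd1 (71.3, next 56.0). Atp6v1a moved in opposite directions with GVHD, lower in each hippocampus library (−0.16 on the log2 scale) and higher in each host microglia library (0.20), and neither passed its test. The difference between these 2 was not tested, since the tables were normalised separately. The causes were not tested.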

How the results depend on the processing

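No setting called a lysosomal gene in hippocampus or between the 2 host groups, and no called gene changed sign; 12 of 17 and 11 of 16 donor calls held in all settings. The number of members called lower in donor cells moved from 5 to 3 against GVHD host and 2 against TCD host cells with a minimum fold change of 1.2, and against GVHD host cells to 3 with a block by description number and 10 within the larger API set less donor library 5 or with equal totals (both chosen after seeing the data). That minimum cut the calls over all genes from 5052 to 3048 and from 4845 to 3021. In hippocampus the 69 calls over all genes became 39 with quantile normalisation, 0 without a variance trend (2343 at an unadjusted p under 0.05), 23 with the minimum fold change, 16 with a replicate block, 33 with GC correction, 17 with both, and 0 (without GVHD library 3 or TCD library 2, with 1828 and 1967 unadjusted) to 123 (without TCD library 3) when a library was left out. Between host groups the 14 became 2 with a replicate block, 2 with GC correction and block, 1 within the larger API set, 0 with the compared groups only or the description block (978 and 593 unadjusted), and 6 to 28 when a library was left out. Quantile normalisation gave 2197 higher and 2942 lower over all genes for donor against GVHD host cells, in place of 2533 and 2519, and equal totals gave 1880 and 3386 against TCD host cells, in place of 2408 and 2437. Title numbers did not pair the hippocampus libraries (correlations −0.163, −0.0403 and −0.183) or the host groups (0.222, −0.0157 and −0.0170), and the block changed no other member call there.

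The reversals below all concern genes that were not called (log2 differences). In hippocampus, GC correction, with or without block, gave Plbd2 0.021 and Grn 0.031, equal totals gave 0.013 and 0.035, and leaving out libraries gave Cd68 −0.0033 to 0.51 and Grn −0.10 to 0.015. For donor against GVHD host cells, Grn was 0.046 with quantile normalisation and 0.0039 with the description block, Cd68 was −0.022 with GC correction, −0.14 with equal totals and −0.062 to 0.14 without single libraries, and Plbd2 was −0.14 in the larger API set less donor library 5. Between host groups, Cd68 was 0.0091 with the block, 0.00064 with GC correction, 0.045 with both and 0.033 in the larger API set, with or without donor library 5. There Tfeb was 0.0089 with GC correction and 0.028 in the larger API set, and Atp6v0d1 0.0061 with GC correction and block and 0.023 in the larger API set. Without single libraries the host difference ran from −0.14 to 0.097 for Cd68, −0.44 to 0.014 for Plbd2, −0.026 to 0.20 for Grn and −0.12 to 0.031 for Atp6v0d1. For donor against TCD host cells, Cd68 was 0.0092 (median ratio), 0.077 (quantile), 0.048 (block), 0.054 (block and GC), 0.19 (larger API set less donor library 5), 0.0058 (no API term) and 0.16 (larger API set). Grn was 0.11 with quantile normalisation, 0.014 in the larger API set and 0.068 with the description block, and Plbd2 was −0.13 (block), −0.097 (block and GC) and −0.14 (larger API set less donor library 5). Lamp1 was −0.58 there, −0.64 in the larger API set, −0.061 with the compared groups only, −0.068 with equal totals and −0.080 with the description block. Without single libraries it ran from −0.77 (TCD host library 1) to 0.78 (TCD host library 2), Cd68 from −0.11 to 0.13, Plbd2 from −0.073 to 0.35 and Grn from −0.19 to 0.052. The causes were not tested. Depth limits genes with values near 1, such as Atp6v0d2, where 1 read is worth an estimated 0.0300 to 0.121.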
